A study of Mus musculus with 9 samples.

Results

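The 10 genes described here are the usual readouts of epithelial-mesenchymal transition: Cdh1, Epcam, Cdh2, Vim, Fn1, Zeb1, Zeb2, Snai1, Snai2 and Twist1. They were chosen by symbol, and all 10 were found among the 18484 genes counted in each tumour. Expression was measured by RNA sequencing, with 1 library per tumour, in 9 mammary tumours of BlgCre-NeuKI mice on a mixed FVB and C57Bl6 background. These mice carry an activated rat Neu gene knocked into the Erbb2 locus behind a floxed STOP cassette, and a Cre transgene under the beta-lactoglobulin promoter, which is active mainly in luminal cells of the mammary gland. Every tumour carried both alleles, and no normal gland is among the samples.

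The tumours fell into 3 histotypes. There were 6 adenocarcinomas of no special type, AC(NST), of which 5 were high-amplified at the Erbb2/Neu locus and 1, MS1166.1 of a parous mouse, was not/low-amplified. Of the high-amplified tumours, MS1163.1, MS1163.2 and MS1213.1 arose in virgin mice and MS1155.3 and MS1218.2 in parous mice. The amplification classes are those of the study's genomic qPCR. By droplet digital PCR the study scored MS1213.1 and MS1218.2 low, and by exome sequencing it found MS1218.2 not amplified. There were 2 metaplastic adenosquamous carcinomas, ASQC (MS1210.1 and MS1349.1), and 1 sarcoma (MS1156.1), all not/low-amplified and all of parous mice. The names MS1163.1 and MS1163.2 share a mouse number, and the study writes of MS1163 as 1 animal, although the submitters count as many mice as tumours. They are read here as 2 tumours of 1 mouse. The main tests nevertheless counted them as separate samples, and an alternative setting summed them. The AC(NST) and ASQC tumours are together called epithelial tumours below. The study classed the sarcoma as non-epithelial, and the cell type from which it arose was not tested here. With 1 sarcoma, each statement on it is about this tumour. The p-values set a difference against the spread between tumours, which for the sarcoma had to come from the other groups.

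Epithelial cells hold together through E-cadherin junctions and carry surface molecules such as EpCAM. In an epithelial-mesenchymal transition these are lost, while N-cadherin, the filament protein vimentin and the matrix protein fibronectin rise, under transcription factors of the ZEB, SNAIL and TWIST families that repress epithelial genes. Fibroblasts, vessels and macrophages of the stroma also express several of the mesenchymal genes, and so, in whole tumour RNA, does any stroma in the piece taken. In such bulk samples a change in the number of cells of a type and a change in RNA per cell cannot be told apart.

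ZEB and SNAIL proteins are known to bind the E-box CACCTG, which reads CAGGTG on the other strand. RefSeq promoter windows of build GRCm38.p6 were searched for these letters for 5 of the 10 genes (Epcam, Vim, Zeb2, Snai1 and Twist1). Each window held the 250 bases before a start, and both strands were read. The other members were not searched, so nothing is said here of their promoters. Of 32851 such windows of all genes, 17.2% held at least 1 match and 2.06% held 2 or more. Epcam had 2 matches, whose first bases lay 187 and 19 bases before the start, and Snai1 had 1, at 126 bases. None was found in the windows of Vim and Twist1 or in any of the 4 windows of Zeb2. The windows of Epcam and of the most upstream Zeb2 start are shown because Epcam was the member furthest below, and Zeb2 the member furthest above, the epithelial tumours in the sarcoma; capitals mark the E-boxes. A match is a description of the letters and not evidence of binding.
Epcam, chr17:87635729-87635978, plus strand: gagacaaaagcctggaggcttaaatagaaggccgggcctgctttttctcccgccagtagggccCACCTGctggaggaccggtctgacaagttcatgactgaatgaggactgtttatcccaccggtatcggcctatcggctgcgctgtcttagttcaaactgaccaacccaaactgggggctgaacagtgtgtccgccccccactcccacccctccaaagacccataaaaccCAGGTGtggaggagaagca
Zeb2, chr2:45117443-45117692, minus strand: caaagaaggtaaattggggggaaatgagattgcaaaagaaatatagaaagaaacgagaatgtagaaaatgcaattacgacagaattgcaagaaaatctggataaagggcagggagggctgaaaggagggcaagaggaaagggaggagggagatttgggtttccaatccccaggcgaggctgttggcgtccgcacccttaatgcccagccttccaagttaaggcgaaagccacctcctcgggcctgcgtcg

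All levels are read counts divided by 1 size factor per tumour (normalized counts), set over the 9 tumours together. Between 12501225 and 23912429 reads per tumour had been counted on genes. Across all genes the sarcoma stood apart: its correlation with the epithelial tumours (Pearson's r of log2 values) was between 0.809 and 0.866, against 0.914 to 0.966 among the epithelial tumours. Comparisons used edgeR's quasi-likelihood test, and a gene was called when its adjusted p was under 0.05 and its change was over 2-fold. The spread for the lone sarcoma was taken from the other groups, on the assumption that it varies like them. Its comparisons with AC(NST) and with ASQC share that tumour, so their calls are not independent of each other.

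In the sarcoma both epithelial adhesion genes were below 100 normalized counts, while Zeb1, Zeb2 and Cdh2 were far higher than in any epithelial tumour. Vim and Fn1, by contrast, did not exceed the highest epithelial tumour. Against AC(NST), 5 of the 10 members were called, 3 higher and 2 lower in the sarcoma, where 6.73% of the 14145 genes tested were called in either direction. The same 5 members were called against ASQC, where 4.8% of the genes were. Levels of the sarcoma lay above those of all 8 epithelial tumours for Cdh2, Zeb1, Zeb2 and Snai2, which was also so for 22.2% of genes, and below all 8 for Cdh1 and Epcam, as for 20.3% of genes. All 10 members passed the filter on low counts.

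**Figure D1:**
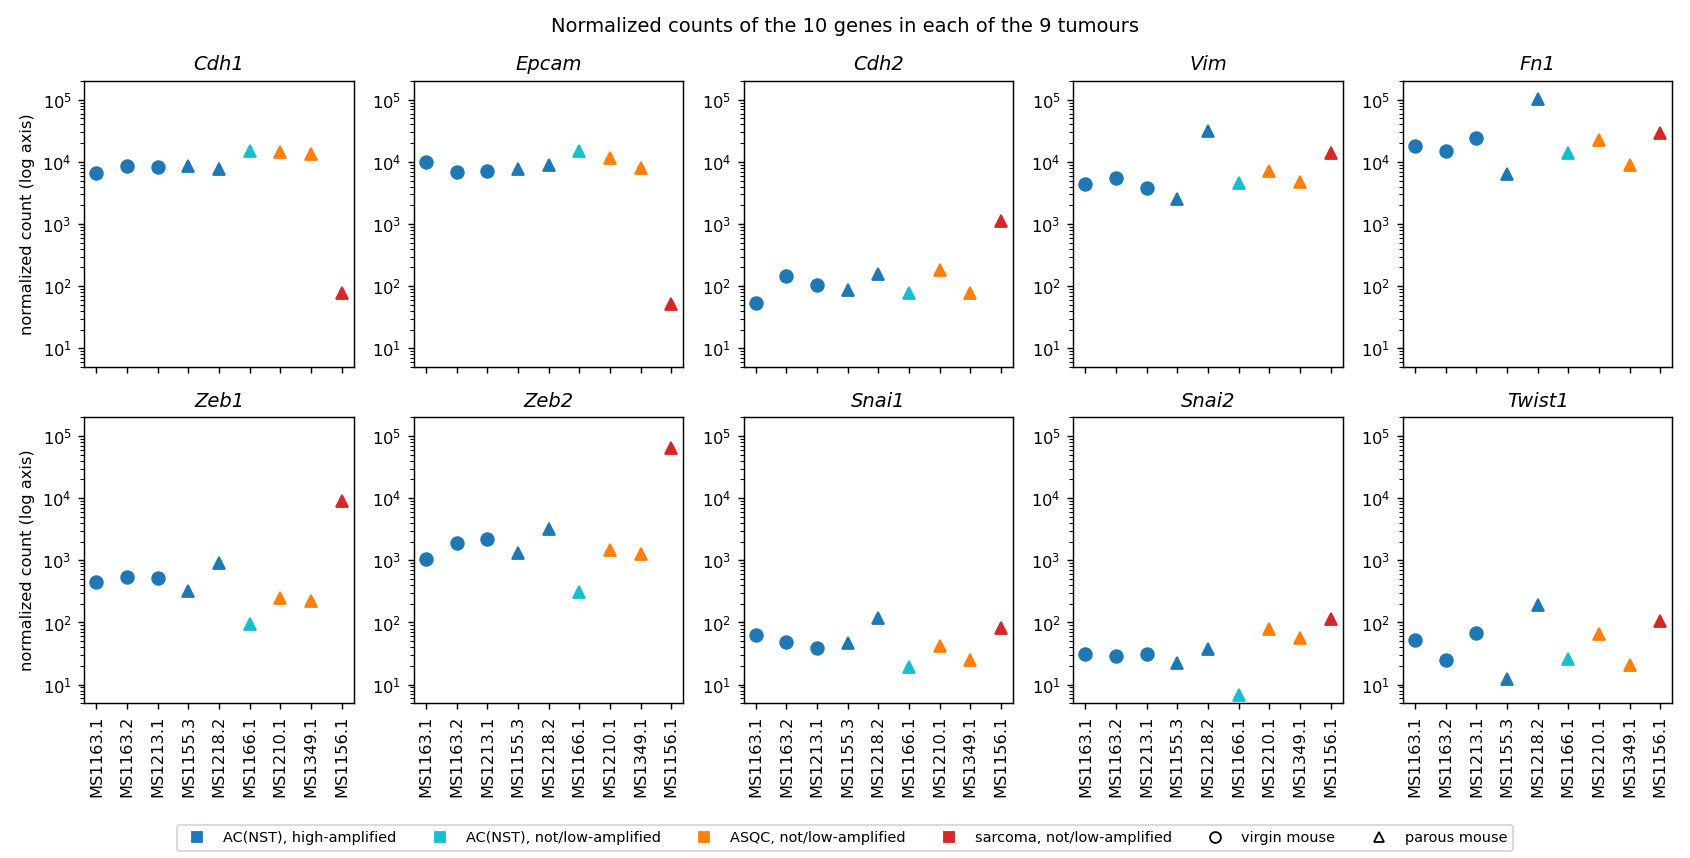
Normalized counts (log axis) of the 10 genes in each of the 9 tumours, 1 point per tumour, coloured by histotype and amplification and shaped by parity. The sarcoma MS1156.1 is the lowest tumour for Cdh1 and Epcam and the highest for Cdh2, Zeb1, Zeb2 and Snai2, while MS1218.2 is the highest for Vim, Fn1, Snai1 and Twist1.

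Cdh1 encodes E-cadherin, the adhesion molecule of epithelial junctions (ENSMUSG00000000303, GRCm38 chromosome 8, 106603351-106670246). Its normalized count was 76.6 in the sarcoma. In the AC(NST) tumours it was 6542 at the lowest, 8303 at the median and 15043 at the highest, and it was 14578 and 13183 in the ASQC tumours. The groups did not overlap, and the lowest epithelial tumour had 85.4 times the level of the sarcoma. The edgeR log2 fold change of the sarcoma was -6.91 (SE 0.88, adjusted p = 0.0022) against AC(NST) and -7.54 (SE 0.92, adjusted p = 0.0042) against ASQC.

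Epcam encodes a surface adhesion protein of epithelial cells (ENSMUSG00000045394, chromosome 17, 87635979-87651129). Its normalized count was 51.1 in the sarcoma, between 6854 and 15094 with a median of 8181 in the AC(NST) tumours, and 11443 and 8056 in the ASQC tumours. Again nothing overlapped, and the lowest epithelial tumour had 134 times the level of the sarcoma. The log2 fold change was -7.52 (SE 0.93, edgeR adjusted p = 0.0020) against AC(NST) and -7.61 (SE 0.95, edgeR adjusted p = 0.0044) against ASQC. Ranked by the ratio of the sarcoma to the epithelial median, Epcam was the 83rd lowest and Cdh1 the 124th lowest of the 14145 genes.

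Cdh2 encodes N-cadherin, the cadherin of many mesenchymal and neural cells (chromosome 18, 16588877-16809246). Its normalized count was 1124 in the sarcoma, between 54.2 and 158 with a median of 94.5 in AC(NST), and 183 and 78.7 in ASQC. The sarcoma had 6.13 times the level of the highest epithelial tumour, the ASQC MS1210.1. The log2 fold change was 3.40 (SE 0.54, edgeR adjusted p = 0.0056) against AC(NST). Against ASQC it was 3.06 (SE 0.73, edgeR adjusted p = 0.0453), close to the limit, and this call was lost under 8 of 13 other settings. Per kilobase of exon, Cdh1 was between 84.8 and 341 times Cdh2 in the epithelial tumours, whereas in the sarcoma Cdh2 was 8.32 times Cdh1.

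Vim encodes the intermediate filament protein vimentin (chromosome 2, 13573927-13582826). Its normalized count was 14046 in the sarcoma, which was above 5 of the 6 AC(NST) tumours (2535 to 5589) and both ASQC tumours (7121 and 4775) but below the AC(NST) tumour MS1218.2 (30922). The log2 fold change was 0.66 (SE 1.16, edgeR adjusted p = 0.807) against AC(NST) and 1.20 (SE 1.34, edgeR adjusted p = 0.613) against ASQC. MS1218.2 decided the first of these: without it the log2 fold change against AC(NST) was 1.73 (SE 0.42, edgeR adjusted p = 0.0424) and 6 members, now with Vim, were called.

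Fn1 encodes fibronectin of the extracellular matrix (chromosome 1, 71585520-71653200). It was at 29003 in the sarcoma, at 6351 at the lowest, 16525 at the median and 101440 at the highest in AC(NST), and at 22376 and 8918 in ASQC. The highest value was again that of MS1218.2, with the other 5 AC(NST) tumours at no more than 23946. The log2 fold change of the sarcoma was -0.08 (SE 1.31, edgeR adjusted p = 0.980) against AC(NST), and without MS1218.2 it turned to 0.88 (edgeR adjusted p = 0.515). Against ASQC it was 0.86 (SE 1.44, edgeR adjusted p = 0.745).

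Among the transcription factors, the ZEB pair separated the sarcoma most widely. Zeb2 (chromosome 2, 44983632-45117395) encodes a zinc finger repressor of Cdh1. Its normalized count was 63602 in the sarcoma, between 308 and 3141 with a median of 1607 in AC(NST), and 1456 and 1256 in ASQC. The sarcoma had 20.3 times the level of the highest epithelial tumour. The log2 fold change was 5.22 (SE 0.72, edgeR adjusted p = 0.0031) against AC(NST) and 5.51 (SE 1.09, edgeR adjusted p = 0.0232) against ASQC.

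Zeb1 (chromosome 18, 5591860-5775467), the other member of that family, was at 8896 in the sarcoma. It was between 95.0 and 890 with a median of 484 in AC(NST), and 252 and 223 in ASQC, so that the sarcoma had 9.996 times the level of the highest epithelial tumour. The log2 fold change was 4.21 (SE 0.65, edgeR adjusted p = 0.0052) against AC(NST) and 5.19 (SE 0.97, edgeR adjusted p = 0.0184) against ASQC. With either ASQC tumour left out, each arm is a lone tumour, and the differences from ASQC then missed the limit for Zeb1 (edgeR adjusted p = 0.128 and 0.131), Zeb2 (0.154 and 0.156) and Cdh2 (0.115 and 0.235). With tumours of parous mice alone, Cdh1 and Epcam were still called against AC(NST), while Zeb1 (edgeR adjusted p = 0.0849), Zeb2 (0.0712) and Cdh2 (0.0647) were not, at log2 fold changes of 4.30, 5.27 and 3.35. An antisense gene, Zeb2os, shares 3.27% of the exon bases of Zeb2, and an antisense transcript shares 1.93% of those of Zeb1. How reads were assigned by strand is not given, so reads of a gene and its antisense partner cannot be told apart there.

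Snai1, Snai2 and Twist1, which encode the remaining repressors, were low in every tumour and none was called. Snai2 (chromosome 16, 14705852-14709385) was at 113 in the sarcoma, between 6.87 and 37.8 with a median of 29.7 in AC(NST), and at 78.2 and 55.5 in ASQC. The sarcoma was thus the highest tumour and the ASQC pair came next, with a log2 fold change of the sarcoma of 2.06 (SE 0.76, edgeR adjusted p = 0.163) against AC(NST). Snai1 (chromosome 2, 167538195-167542814) was at 82.0 in the sarcoma, between 19.5 and 118 in AC(NST), and at 41.1 and 24.6 in ASQC. Twist1 (chromosome 12, 33957671-33959829) was at 106 in the sarcoma, between 12.4 and 191 in AC(NST), and at 65.4 and 21.1 in ASQC. For both, the highest tumour was MS1218.2 and the sarcoma was the next. The log2 fold changes against AC(NST) were 0.53 (SE 0.89) for Snai1 and 0.72 (SE 1.23) for Twist1.

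**Figure D2:**
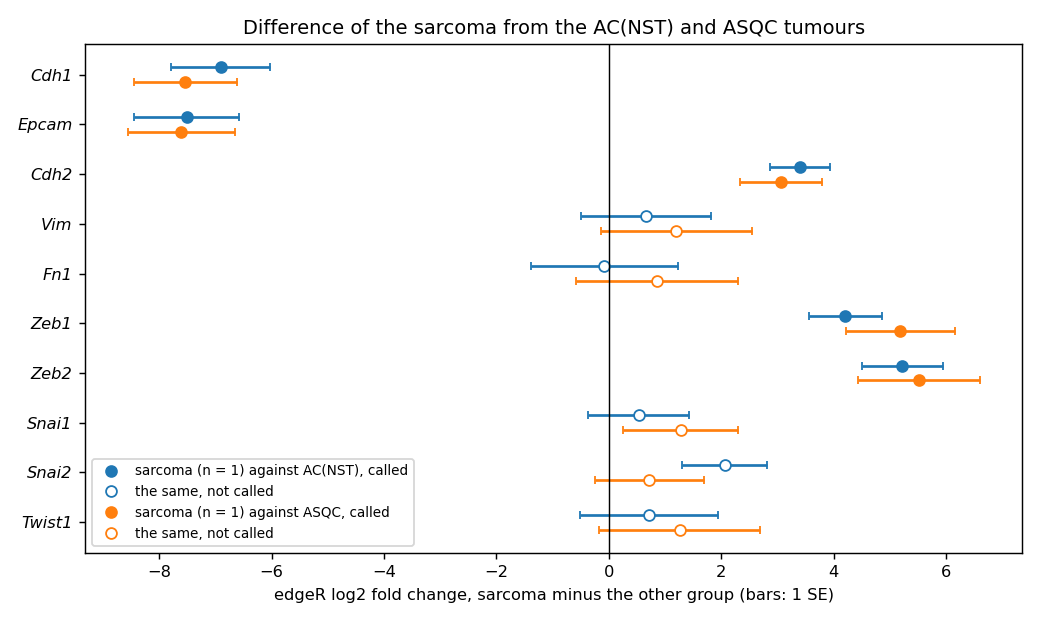
edgeR log2 fold changes of the sarcoma (n = 1) against the 6 AC(NST) and the 2 ASQC tumours, with bars of 1 standard error and filled points for called genes. Cdh1 and Epcam lie near -7, Cdh2, Zeb1 and Zeb2 between 3.06 and 5.51, and the bars of Vim and Fn1 cross 0 in both comparisons.

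Compared per kilobase of exon, the order of the members in the sarcoma differed from that in the epithelial tumours. In AC(NST) the medians of normalized counts per kilobase were highest for Epcam (3727), then Cdh1 (1815), Fn1 (1414) and Vim (947), with Zeb2 (80.6), Zeb1 (47.2), Snai1 (28.9), Twist1 (24.4), Snai2 (14.7) and Cdh2 (11.7) well below. The ranges of neighbours in this order overlapped throughout, except between Vim and Zeb2. In ASQC the 5 highest were the same genes in the same order. In the sarcoma Zeb2 came first (3189), followed by Vim (2961), Fn1 (2482), Zeb1 (867) and Cdh2 (139), with Epcam (23.3) and Cdh1 (16.8) last.

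The adhesion genes did not stand alone. Of 18 other epithelial genes, comprising tight junction genes, keratins and epithelial transcription and splicing factors, all 18 were lower in the sarcoma than in every epithelial tumour, and 15 were called lower against AC(NST), where 2.59% of all genes were. For 20.3% of all genes the sarcoma lay below every epithelial tumour. The median log2 fold change of the list was -6.54, against -0.16 over all genes. Against ASQC, 15 of the 18 were again called lower, where 2.27% of all genes were, with a median of -7.03.

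Of the called genes of this list, Ovol1 and 3 claudins of tight junctions had the largest changes. Cldn3 was at 18.8 in the sarcoma and between 2815 and 11485 in the epithelial tumours, with a log2 fold change of -8.25 (SE 1.22, edgeR adjusted p = 0.0042) against AC(NST). Cldn7 was at 6.72 and between 1178 and 4222, with a log2 fold change of -8.16 (SE 1.14, edgeR adjusted p = 0.0033). Cldn4 was at 2.69, and between 488 and 13890 in the epithelial tumours. Ovol1, a transcription factor of epithelial cells, had no read in the sarcoma, and a count of 0 allows up to 3 reads or 2.30e-05% of that library by counting error. It was between 45.5 and 738 in the epithelial tumours. Of the 5 luminal epithelial markers, of which 3 are also in the list of 18, 4 were called lower against AC(NST), among them Elf5 (log2 fold change -8.14, edgeR adjusted p = 0.0048) and Kit (-4.73, edgeR adjusted p = 0.0262). All 5 lay below the epithelial tumours, at a sum of 733 against 28409 to 111971.

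The mesenchymal side was less uniform. Of 14 other mesenchymal genes found, 13 were tested and 2 were called higher against AC(NST), where 4.14% of genes were: Prrx1, a mesenchymal homeobox factor (4450 against 181 to 851 in AC(NST), log2 fold change 3.12, edgeR adjusted p = 0.0149), and Cdh11, a cadherin of mesenchymal cells (6238 against 269 to 1261 in AC(NST), log2 fold change 3.07, edgeR adjusted p = 0.0357). Against ASQC none of the 13 was called. In this list 8 genes were higher in the sarcoma than in all epithelial tumours and 2 were lower, among them Lox (768 against 857 to 5264). Over all genes tested these shares were 22.2% and 20.3%. Gsc, 1 of the 8, was near the floor, at 5.38 against at most 2.64. Of 10 genes of the TGF-beta pathway, a known inducer of the transition, none was called in either sarcoma comparison and the median log2 fold change against AC(NST) was 0.06. The nearest to the limit against AC(NST) were Tgfbi (log2 fold change 2.94, edgeR adjusted p = 0.0603) and Tgfb3 (-2.76, edgeR adjusted p = 0.0944), which were chosen after their values were seen.

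To set these levels beside the stroma, marker lists of other cell types were summed in each tumour. The sum of 8 fibroblast markers was 586501 in the sarcoma, against 27983 to 356997 in the epithelial tumours. Of the 8 markers, 6 were above all epithelial tumours, as were 22.2% of all genes. The ratio of the sum to the AC(NST) median was 6.69. Dcn (decorin; log2 fold change 3.94, edgeR adjusted p = 0.0113), Lum (lumican; 3.45, edgeR adjusted p = 0.0057) and Fap (3.18, edgeR adjusted p = 0.0257) were called against AC(NST), and Dcn (4.28, edgeR adjusted p = 0.0477) and Lum (3.86, edgeR adjusted p = 0.0233) against ASQC. The endothelial and macrophage lists stayed within the range of the epithelial tumours. The sum of 7 endothelial markers was 3561 in the sarcoma and 2469 to 14719 in the epithelial tumours, and that of 7 macrophage markers was 7574 and 3454 to 47444. None of these 14 markers was above all epithelial tumours or called against AC(NST). No endothelial or macrophage marker was at 0.

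Some markers of other mesenchymal and neural lineages were also high in the sarcoma. All 4 Schwann cell markers lay above every epithelial tumour, with a sum of 39351 against 662 to 7590. Of all genes, 22.2% lay above every epithelial tumour in the sarcoma. The sum of 5 pericyte and smooth muscle markers was 16602 in the sarcoma against 1771 to 13391 in the epithelial tumours. Of these 5, Cspg4 alone was called against AC(NST) (9979 against 190 to 1940 in the epithelial tumours, log2 fold change 3.95, edgeR adjusted p = 0.0186). Kcnj8 (101 against 112 to 455) was below all epithelial tumours, Rgs5, Pdgfrb and Myh11 lay within their range, and the median log2 fold change of the list was 0.36. Of 6 skeletal muscle markers found, 4 lay above all epithelial tumours, with a sum of 12658 against 10.03 to 2492, and none was called. The factors of muscle differentiation in that list were low in the sarcoma, Myod1 at 5.38 and Myog at 10.8, both below MS1163.2 (9.59 and 21.6). The part of these cell types in the levels of Zeb1, Zeb2 and Cdh2 was not tested.

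Setting each member over the fibroblast sum gave a second reading of the same values. Per 1000 fibroblast marker counts, Zeb2 was at 108 in the sarcoma and between 8.80 and 31.8 in the epithelial tumours, and Zeb1 was at 15.2 and between 2.49 and 7.65. Both thus remained above all 8 tumours on this scale. Cdh2 did not, at 1.92 within a range of 0.443 to 2.78. Vim (23.95 against 34.1 to 165), Fn1 (49.5 against 139 to 501), Snai1 (0.140 against 0.330 to 1.09) and Twist1 (0.181 against 0.233 to 0.941) were lower in the sarcoma than in any epithelial tumour. Snai2 (0.193) lay within the range of 0.106 to 1.15. The shares of all genes above or below every epithelial tumour on this scale were not counted. The fibroblast sum of the sarcoma was 1.64 times the highest epithelial sum, which lowers every ratio of that tumour. A place below all epithelial tumours on this scale therefore does not set a member apart. The sum was mostly collagen: Col1a1 (123075), Col1a2 (168069) and Col3a1 (258607) made up most of the 586501 in the sarcoma. Set over Dcn alone, Zeb1 was lower in the sarcoma (8896 to 23467 of Dcn) than in MS1163.1 (449 to 798). It was still higher there than in the other epithelial tumours. These ratios assume that the fibroblast markers count fibroblasts, and collagens and decorin can also be made by sarcoma cells.

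MS1218.2 was the epithelial tumour with the highest fibroblast, endothelial and macrophage sums. The study's own purity estimates also single it out, as the only sample not above a stated level of tumour-cell purity. The sarcoma was not named as an exception there. Relative to the median of the other 5 AC(NST) tumours, the level in MS1218.2 was 7.24 times as high for Twist1, 7.09 for Vim and 6.74 for Fn1. It was 2.56 times as high for Snai1, 2.35 for Zeb2 and 1.98 for Zeb1. Its stromal sums were 7.07 times the same median for macrophage, 5.32 for fibroblast, 4.14 for endothelial and 3.18 for pericyte and smooth muscle markers. Cdh1 was at 0.898 and Epcam at 1.16 times that median, and the sum of the 18 other epithelial genes was 1.16 times their median. The sarcoma reached a fibroblast sum 1.64 times that of MS1218.2, with 20.3 times its Zeb2 and 9.996 times its Zeb1 but 0.454 times its Vim and 0.286 times its Fn1, and with macrophage and endothelial sums of 0.160 and 0.242 times those of MS1218.2. These are values of 2 tumours, with no replicate of either.

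**Figure D3:**
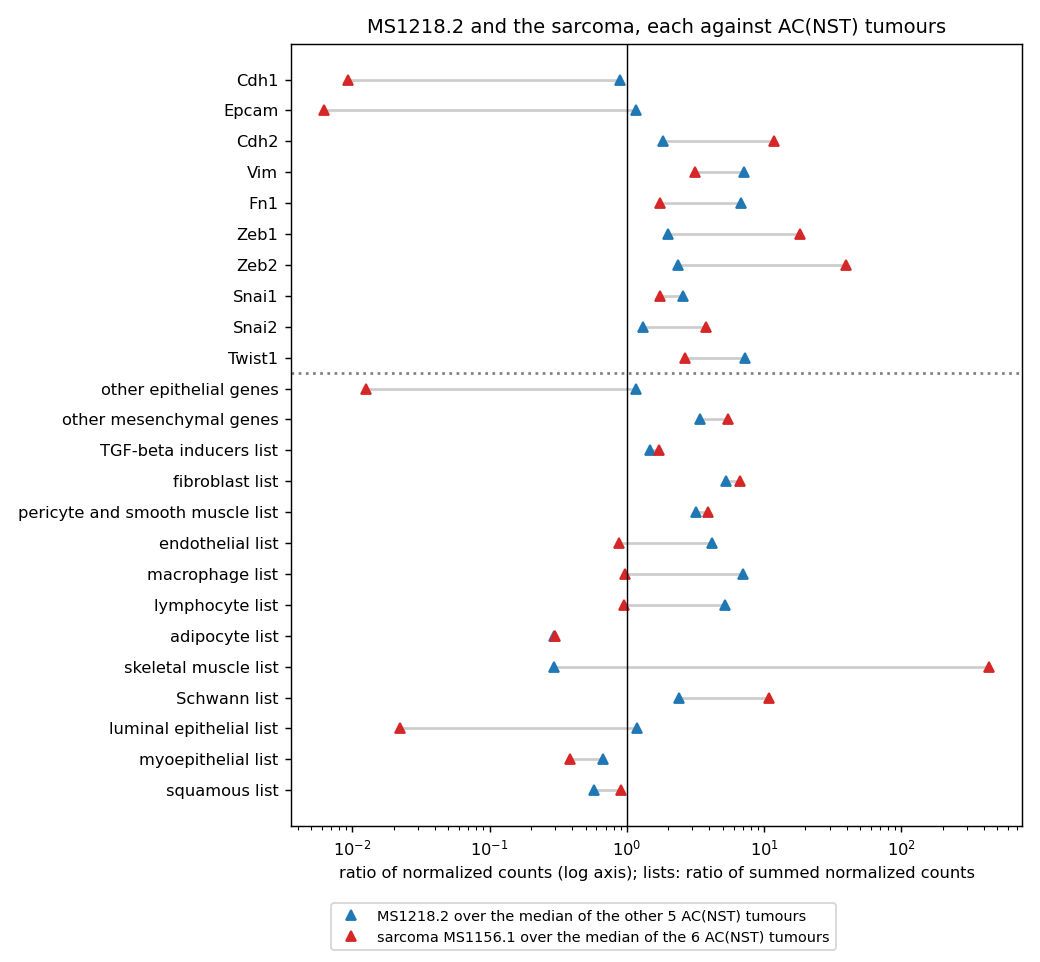
Ratios of normalized counts (log axis) for the 10 members and of summed normalized counts for 14 gene lists, for MS1218.2 over the median of the other 5 AC(NST) tumours (blue) and for the sarcoma over the median of the 6 AC(NST) tumours (red). MS1218.2 lies to the right for Vim, Fn1, Twist1 and the stromal lists with Cdh1 and Epcam near 1, whereas the sarcoma lies far to the left for all epithelial genes and to the right for Zeb1, Zeb2 and the fibroblast, Schwann and skeletal muscle lists.

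Per kilobase, the ratio of Vim to Epcam was 127 in the sarcoma, 1.63 in MS1218.2 and between 0.142 and 0.377 in the other epithelial tumours.

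Within the 8 epithelial tumours, levels of Zeb1 and Zeb2 followed the fibroblast markers. Of 20 relations between the 10 members and the mean log2 level of the fibroblast or macrophage list, 2 had an adjusted p under 0.05 and 7 a raw p under 0.05, by a two-sided exact permutation test. Zeb1 had r = 0.931 with the fibroblast list (exact permutation p = 0.0017, adjusted 0.0166; rho = 0.929, p = 0.0022, adjusted 0.0446), and Zeb2 had r = 0.900 (exact permutation p = 0.0016, adjusted 0.0166; rho = 0.905, p = 0.0046, adjusted 0.0456). Without MS1218.2 and MS1166.1, the tumours with the most and the least fibroblast signal, r was 0.786 and 0.801. The adjusted p of both relations exceeded 0.05 when MS1213.1 (0.0754 for both), MS1163.2 (0.0982) or MS1166.1 (0.0741) was left out, and that of Zeb1 without MS1349.1 (0.0516). MS1163.1 and MS1163.2 were read as tumours of 1 mouse, and with their mean as 1 sample r for Zeb1 was 0.954 (exact permutation, adjusted p = 0.0489). The relation of Snai1 to the fibroblast list also passed with that mean or without MS1163.1, and that of Snai2 to the macrophage list without MS1218.2.

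Vim and Fn1 followed the stromal lists less closely. Vim had r = 0.856 with the macrophage list (exact permutation p = 0.0284, adjusted 0.113), which was 0.567 without MS1218.2 and MS1166.1. Fn1 had r = 0.750 with the fibroblast list (exact permutation p = 0.0339, adjusted 0.113) and 0.669 without them. With the macrophage list Fn1 had r = 0.788 (exact permutation p = 0.0400, adjusted 0.114), which fell to 0.352 without them. Snai1 had r = 0.838 with the fibroblast list (exact permutation p = 0.0120, adjusted 0.0802), which fell to 0.363 without these tumours and so rested on them. Cdh1 and Epcam had r of -0.60 and -0.55 with the fibroblast list (exact permutation, adjusted p = 0.162 and 0.193).

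**Figure D4:**
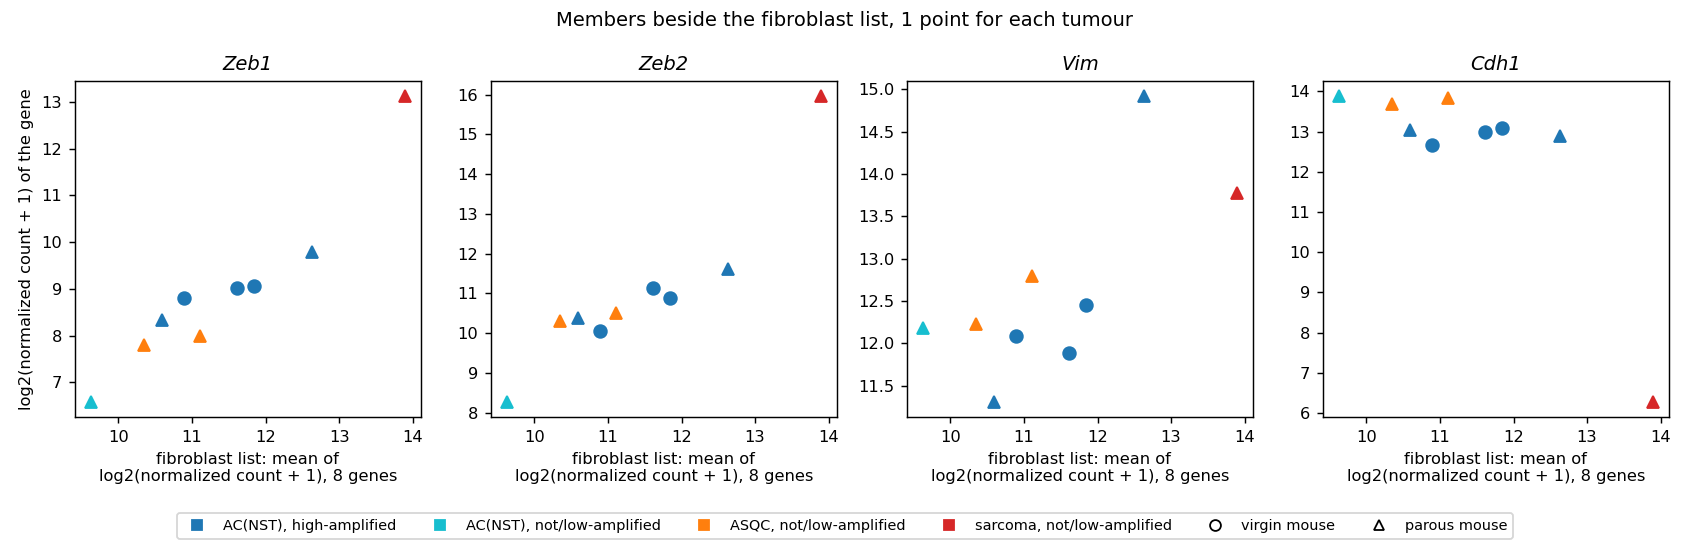
Levels of Zeb1, Zeb2, Vim and Cdh1 (log2 of normalized count + 1) against the mean log2 level of the 8 fibroblast markers, 1 point per tumour. Over the 8 epithelial tumours r was 0.931 for Zeb1, 0.900 for Zeb2, 0.667 for Vim and -0.60 for Cdh1, and the sarcoma, which did not enter these, lies at the upper right for Zeb1 and Zeb2 and at the bottom right for Cdh1.

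Between ASQC and AC(NST), none of the 10 members was called, where 0.236% of 14007 genes were. None had an unadjusted edgeR p under 0.05, and DESeq2, which called 373 genes, called no member. The log2 fold changes of ASQC lay between -0.98 for Zeb1 (SE 0.67, edgeR adjusted p = 0.710) and 1.34 for Snai2 (SE 0.63, edgeR adjusted p = 0.595). Snai2 was the 1 member of 10 whose values did not overlap between the 2 histotypes. The share of all genes without such overlap was not counted, so this does not set Snai2 apart. Cdh1 was at 13881 ± 986 (SD, n = 2) in ASQC and 9091 ± 3018 (SD, n = 6) in AC(NST), a log2 fold change of 0.62 (SE 0.40, edgeR adjusted p = 0.687), and Epcam differed by 0.09 (SE 0.42, edgeR adjusted p = 0.969). Standard errors lay between 0.40 and 1.04 on the log2 scale, with 2 ASQC tumours. Differences well above 1 standard error could therefore be missed, and the 1.34 of Snai2 (SE 0.63) was not called. No gene of the other epithelial, mesenchymal or TGF-beta lists was called. This comparison shares its AC(NST) tumours with that of the sarcoma.

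When the high-amplified were compared with the not/low-amplified epithelial tumours, the comparison the study itself made, again no member was called, where 0.921% of genes were. That share rested on single tumours and on the model. With all tumours 129 genes were called, and 31 with MS1163.1 and MS1163.2 summed. The number was 1255 without MS1218.2, whose amplification class differed between the study's methods. It was 1 without the ASQC tumour MS1210.1, and no gene was called with parity as a covariate. EdgeR called no member in any of these fits. Without MS1218.2, Cdh1 passed the limit on adjusted p but not that of 2-fold (log2 fold change -0.82, edgeR adjusted p = 0.0465). In the main fit Cdh1 and Zeb1 came nearest, with unadjusted edgeR p of 0.0098 and 0.0066. Cdh1 was between 6542 and 8746 in the 5 high-amplified tumours, and at 13183, 14578 and 15043 in the 3 not/low-amplified ones. No values overlapped, and the log2 fold change was -0.83 (SE 0.26, edgeR adjusted p = 0.115). Every high-amplified tumour was below every not/low-amplified one for 8.09% of all genes. Zeb1 was at 321, 449, 520, 537 and 890 in the high-amplified tumours and at 95.0, 223 and 252 in the others, without overlap, which in this direction held for 7.5% of genes. Its log2 fold change was 1.53 (SE 0.44, edgeR adjusted p = 0.1005).

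DESeq2 called Zeb1 here (log2 fold change 1.52, SE 0.45, adjusted p = 0.0123), in a fit that called 10.6% of genes. For Cdh1, DESeq2 gave an adjusted p of 0.000838 with a change of -0.84, short of 2-fold. The fibroblast markers moved with Zeb1, as all 8 had log2 fold changes above 0 (median 1.10, against 0.02 over all genes). With the level of the fibroblast list as a covariate, the log2 fold change of Zeb1 was 0.71 (SE 0.35, edgeR adjusted p = 0.303) and that of Cdh1 was -0.85 (SE 0.36, edgeR adjusted p = 0.241). With parity as a covariate they were 1.70 (SE 0.53, edgeR adjusted p = 0.256) and -0.80 (SE 0.35, edgeR adjusted p = 0.341). Both ASQC tumours were not/low-amplified, so histotype and amplification overlap. With AC(NST) tumours alone, where the not/low-amplified arm is the lone MS1166.1, the values were 2.50 (SE 0.71, edgeR adjusted p = 0.139) for Zeb1 and -0.95 (SE 0.44, edgeR adjusted p = 0.282) for Cdh1.

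Of the lists, Ovol1 was called lower in the high-amplified tumours (45.5 to 146 against 363 to 738, log2 fold change -2.45, edgeR adjusted p = 0.0362) and the Schwann marker S100b higher (110 to 1039 against 3.43 to 14.2, log2 fold change 5.63, edgeR adjusted p = 0.0433). Of the 18 other epithelial genes 16 had log2 fold changes below 0, with a median of -1.004.

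Between virgin and parous mice no member was called, and no gene was (0% of 14007), although 1984 genes had an unadjusted edgeR p under 0.05. None of these was a member. The members' log2 fold changes lay between -1.14 for Vim (SE 0.79, edgeR adjusted p = 0.509) and 0.48 for Zeb1 (SE 0.60, edgeR adjusted p = 0.717). The value for Vim rested on MS1218.2, a tumour of a parous mouse, and was -0.05 (edgeR adjusted p = 0.956) without it. DESeq2 called 502 genes but no member. All virgin tumours were high-amplified AC(NST), so parity, amplification and histotype cannot be told apart in full here.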

How the data were processed

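RNA had been isolated from snap-frozen tumours, depleted of ribosomal RNA and made into strand-specific libraries, which were sequenced in pairs. Per the study's methods the authors aligned reads with STAR to the mouse genome with settings for unstranded libraries and counted them with HTSeq-count, with a strand option not given in the sources used here. The deposited counts are whole numbers of reads per gene whose totals differ between tumours, and were used as deposited. The second deposited set, scaled values of the 8 epithelial tumours, was not used. Normalized counts here are counts over a size factor per tumour, found by the median-of-ratios method on 9 tumours. Tests used edgeR 4.0.16 in R 4.3.3 (TMM scaling, glmQLFit and glmQLFTest, Benjamini-Hochberg over all genes) on genes that reached 10 counts in 3 or more tumours, called at adjusted p under 0.05 and over 2-fold. The sarcoma comparisons came from 1 fit of 3 groups on 9 tumours, the others from fits of the 8 epithelial tumours without covariates. Correlations used log2(normalized count + 1) with exact permutation of pairings. Alternatives were DESeq2 1.42.0, other scaling, filters, samples and covariates, and each tumour left out in turn. Fits were tested on simulated data. Positions and exon lengths are those of GENCODE M21 (GRCm38). Sequences are from RefSeq. The members and lists were chosen with earlier results of these data known. Genes were named by rule: all members, at most 4 called genes of each other list and comparison by size of change, the sums of marker lists, and the 3 genes most like Cdh1, Vim and Zeb1. Any other gene named was chosen after its values were seen. The labels name no sequencing batch. Single values of some listed genes are not reported here.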

Additional observations from a re-analysis of the deposited data

Results flagged for a closer look

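Of 24 checks over the 6 AC(NST) tumours (10 members and the sums of 14 gene lists), 15 found 1 tumour far from the other 5. The limit used is passed by about 1 in 20 sets of normally distributed values. The checks were made on normalized counts without logarithms, for which that rate need not hold, and were not repeated on a log scale. The lists share genes and tumours, so these are not 15 separate events. MS1218.2 accounts for 8 of them. It stood apart for Vim (30922 against 2535 to 5589), Fn1 (101440 against 6351 to 23946) and Twist1 (191 against 12.4 to 67.01). It stood apart also for the sums of the other mesenchymal genes (85115 against 14642 to 30504), fibroblast markers (356997 against 27983 to 111111), pericyte and smooth muscle markers (13391 against 1771 to 4655), endothelial markers (14719 against 2469 to 4704) and macrophage markers (47444 against 3454 to 11087).

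MS1166.1, the AC(NST) tumour without high amplification, stood apart for Cdh1 (15043 against 6542 to 8746), Epcam (15094 against 6854 to 9787), the sum of the other epithelial genes (142372 against 39302 to 60428) and that of luminal epithelial markers (111971 against 28409 to 48505). Its fibroblast sum, 27983, was the lowest of the 9 tumours. MS1163.2 stood apart for adipocyte markers (887 against 11.4 to 267) and skeletal muscle markers (2492 against 10.03 to 197), and MS1155.3 for squamous markers (426 against 14.1 to 69.8).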

How the results depend on the processing

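Of 83 alternative counts of called members or relations, 75 stayed within 1.5 times the reported count. Against AC(NST), 5 members remained called by DESeq2 and 2 were called with tumours of parous mice alone. Against ASQC the count lay between 2 and 5 with a tumour left out, and was 2 without either ASQC tumour. Between high-amplified and not/low-amplified tumours DESeq2 called 1 member, Zeb1. The number of relations with an adjusted p under 0.05 lay between 0 and 3 with a tumour left out. With a tumour left out, the number of all genes called by edgeR lay between 165 (without MS1210.1) and 1447 (without MS1166.1) for the sarcoma against ASQC and between 4 (without MS1349.1) and 84 (without MS1166.1) for ASQC against AC(NST), and was 147 without MS1155.3 for virgin against parous. For single genes, 364 of 391 alternatives kept direction and side of the limit, 22 fell short of it, 2 passed it and 3 changed direction. Fn1 in the sarcoma against AC(NST) lay between -0.29 and 0.88 with a tumour left out and was 0.10 against all 8 epithelial tumours as 1 group. Fn1 in high-amplified tumours was -0.88 with the fibroblast list as a covariate. The cause of these changes was not tested beyond the tumours and settings named. DESeq2 gives no adjusted p for Vim in the sarcoma comparisons. No paired analysis was possible because the labels give the tumours no shared replicate numbers. Snai1, Snai2 and Twist1 had at most 191 normalized counts in any tumour, which limits their precision.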

Other observations

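As a description of the 8 epithelial tumours, the 3 genes whose log2 levels were most like those of Cdh1, Vim and Zeb1 were sought among 11165 genes with a mean normalized count of at least 100. The points share libraries and scaling, and the genes were the highest of many. For Cdh1 they were Fen1 (r = 0.979), Snx6 (0.974) and Nebl (0.973). In the sarcoma Fen1 was below all epithelial tumours (141 against 356 to 1407), whereas Snx6 (1246 against 947 to 1719) and Nebl (1084 against 29.1 to 2572) lay within their range, unlike Cdh1. For Vim they were Crtap (0.977), Fez2 (0.975) and Itga5 (0.973), which were at 960, 512 and 1379 in the sarcoma, against highest epithelial values of 1002.3, 510 and 2787. For Zeb1 they were Dennd2a (0.973), Ddr2 (0.972) and Efemp1 (0.969). Dennd2a (3173 against 25.2 to 430) and Ddr2, a collagen receptor (4353 against 145 to 1610), were above all epithelial tumours in the sarcoma, and Efemp1 (505 against 11.4 to 768) was not.

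The remaining marker sums did not set the sarcoma apart from the epithelial tumours: lymphocyte markers summed to 30.9 in the sarcoma and 8.01 to 80.8 in the epithelial tumours, adipocyte markers to 43.0 and 5.40 to 887, myoepithelial markers to 1514 and 579 to 53839, and squamous markers to 20.2 and 14.1 to 14308. The highest myoepithelial and squamous sums were those of the ASQC tumour MS1210.1.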
